A study of Homo sapiens with 10 samples.

Results

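The HOX cluster genes are the 39 genes whose symbol is HOXA, HOXB, HOXC or HOXD followed by a number, and they were picked by that spelling alone from the 58302 genes listed in each expression table. They lie in 4 clusters, with 11 genes in HOXA (chr7:27092993-27200106, minus strand), 10 in HOXB (chr17:48528526-48729178, minus strand), 9 in HOXC (chr12:53938765-54056030, plus strand) and 9 in HOXD (chr2:176092891-176190907, plus strand), at GRCh38 positions as the tables list them. GENCODE 29 places 38 of the 39 at the same start, end and strand.

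HOX genes encode homeodomain transcription factors that give cells their position along the head-to-tail axis of the embryo and along the limb. Genes with the same number in different clusters are paralogs, and within a cluster low numbers lie at the end that is active toward the head and high numbers at the end that is active toward the tail and the tips of the limbs. Adult cells and cell lines tend to keep a HOX pattern from their origin, and Polycomb and Trithorax proteins keep clusters silent or active.

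RNA was sequenced from 3 human lines labelled as hepatocellular carcinoma, with 1 library per condition and 10 in all. The 5 SK-hep1 libraries were a mock control and cells overexpressing PSPC1 (a paraspeckle protein), PSPC1 with the tyrosine kinase PTK6, the mutant PSPC1-Y523F, or PSPC1-Y523F with PTK6. The 3 Mahlavu libraries were a mock control and cells given PSPC1-CT131, the C-terminal part of PSPC1, or Mut-NLS-CT131, the same part with a mutated nuclear localization sequence. The 2 Huh-7 libraries were untreated cells and cells given 10 ng/ml hepatocyte growth factor (HGF) for 48 h. The constructs were introduced by plasmid transfection, and the labels do not say whether an RNA came from 1 clone or from a pool. Because each condition had a single library, no condition could be tested. Differences are given as sizes with counting error, and the libraries of a line serve as a range and not as replicates.

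Reads on genes numbered 15245935 to 24278662 per library, at which 3 reads on a HOX gene correspond to between 0.0329 and 0.248 FPKM (fragments per kilobase of gene, scaled to library size), depending on the gene and the library. PSPC1 had no read in SK-hep1 mock and reached 7.01 FPKM with PSPC1, 26.4 with PSPC1/PTK6, 2.28 with PSPC1-Y523F and 70.9 with PSPC1-Y523F/PTK6. PTK6 stood at 4.79, 5.69, 16.7, 4.09 and 10.5 FPKM in the same order from mock. In Mahlavu, PSPC1 was at 47.3 FPKM in mock and at 30.8 and 22.5 FPKM in the libraries labelled PSPC1-CT131 and Mut-NLS-CT131, so its level did not rise with either label. PTK6 was at 8.945 FPKM in Mahlavu mock and higher with both labels, at 17.2 and 17.3 FPKM. In untreated and HGF-treated Huh-7, PTK6 was at 0.344 and 0.320 FPKM. Of 9 hepatocyte markers, all 9 reached 1 FPKM in both Huh-7 libraries, with sums of 29349 and 29565 FPKM, against 1 (SERPINA1) in every SK-hep1 and every Mahlavu library, with sums of 16.3 to 42.4 and 8.13 to 10.4 FPKM. ALB, TTR, FGB and TF had no read in any SK-hep1 or Mahlavu library, so these defining hepatocyte genes were absent from both lines. Of 7 endothelial markers 0 reached 1 FPKM in every library of SK-hep1 or Mahlavu, and 1 of 4 leukocyte markers did in each line.

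The 3 lines differed in how much HOX RNA they carried and in which cluster it came from. Scaled to library size as RPM, HOX genes took 218 to 282 RPM in SK-hep1, 60.5 to 92.5 in Mahlavu and 106 and 107 in Huh-7. The 95% Wilson interval was 212 to 225 RPM for the lowest SK-hep1 library and 102 to 112 RPM for each Huh-7 library, so the ranges of the lines lay apart by more than counting error. Summed over all members, the level was 158 to 202 FPKM in SK-hep1, 36.5 to 53.7 FPKM in Mahlavu and 90.8 and 92.9 FPKM in Huh-7. HOXB and HOXC together made up most of the SK-hep1 sum, at 80.0 to 116 and 64.4 to 85.9 FPKM. HOXC made up most of the Huh-7 sum, at 81.0 and 84.9 FPKM, while HOXB summed to 0.0943 and 0.0828 FPKM there. In Mahlavu the largest sum came from HOXD, at 19.0 to 21.3 FPKM, a cluster that summed to 4.01 to 13.5 FPKM in SK-hep1 and to 2.16 and 1.20 FPKM in Huh-7. HOXA was low throughout, at 5.18 to 12.4 FPKM in the 10 libraries.

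**Figure D1:**
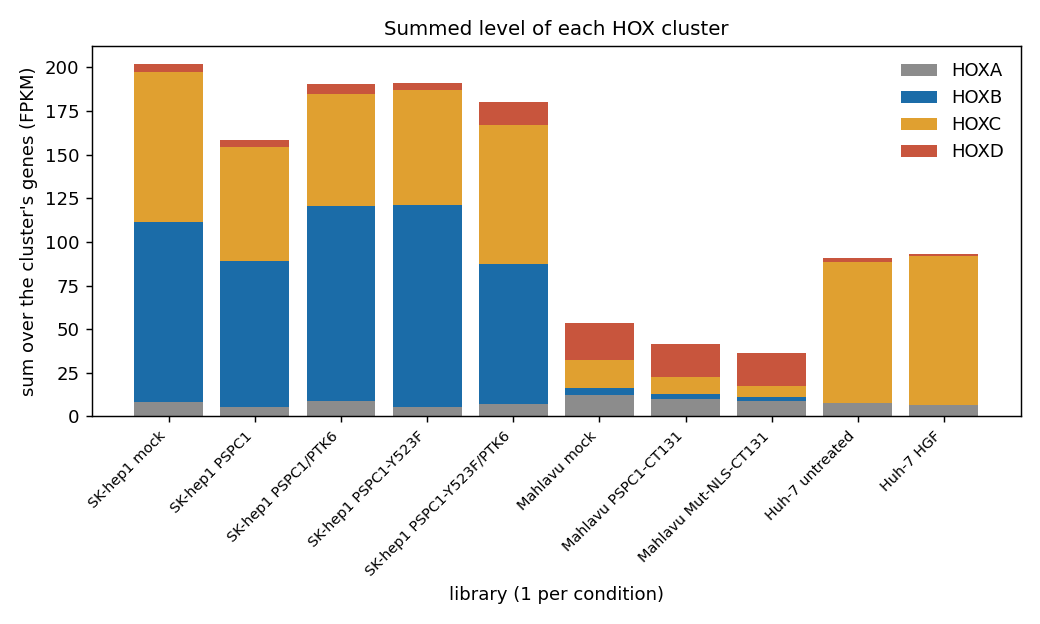
Summed FPKM of the HOXA, HOXB, HOXC and HOXD genes (vertical axis, stacked bars from 0) in each of the 10 libraries (horizontal axis, 1 library per condition). HOXB fills 80.0 to 116 FPKM of the SK-hep1 bars and under 4 FPKM of the others, and HOXD is the largest part of each Mahlavu bar.

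A level of 1 FPKM in every library of the line was reached by 13 members in SK-hep1, 9 in Mahlavu and 10 in Huh-7, of 39, while 18.6%, 20.6% and 23.6% of all 58302 genes reached it. HOXC13, a gene active in hair follicles and nails, was the 1 member at this level in all 10 libraries. Another 13 members stayed below it in all 10, among them HOXB1, HOXB2, HOXC5, HOXC12, HOXD3, HOXD12 and several HOXA genes, and HOXD4 had no read in any. Low values carry a limit where exon bases also belong to another gene record, since reads there may have been given to neither. The shared part was 80.5% of the exon bases of HOXD4, 74.1% of HOXD3, 62.5% of HOXA7 and 40.1% of HOXA6. For HOXD1 and HOXA4, which passed 1 FPKM in some libraries, it was 58.1% and 47.3%. The SK-hep1 genes were HOXA10, HOXB3, HOXB5, HOXB6, HOXB7, HOXB9, HOXB13, HOXC4, HOXC6, HOXC9, HOXC10, HOXC13 and HOXD13. The Mahlavu genes were HOXA5, HOXA10, HOXB7, HOXC13, HOXD8, HOXD9, HOXD10, HOXD11 and HOXD13, which lie mostly toward the tail-end side of HOXD. The Huh-7 genes were HOXA3, HOXA5, HOXC4, HOXC6, HOXC8, HOXC9, HOXC10, HOXC11, HOXC13 and HOXD1, which are 7 of the 9 HOXC genes and no HOXB gene. HOX RNA was concentrated in few genes, and the 3 highest members held 61.2% to 72.8% of the HOX sum in SK-hep1, 46.5% to 51.7% in Mahlavu and 76.4% and 79.0% in Huh-7. By paralog group, group 7 led in SK-hep1 with 52.2 to 73.9 FPKM (almost all of it HOXB7), and group 10 led in Huh-7 with 54.7 and 59.2 FPKM. In Mahlavu, group 13 led in mock with 17.6 FPKM, and group 10 led in PSPC1-CT131 and Mut-NLS-CT131 with 10.9 and 11.3 FPKM.

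Lines were compared by asking whether every library of one stood at least 2-fold above every library of the other on deposited FPKM + 1, among genes whose line medians averaged at least 1 FPKM. Between SK-hep1 and Mahlavu, 17 members passed that level, and 8 were higher in SK-hep1 and 1 in Mahlavu, against 4.52% and 8.51% of all 12877 genes. Between SK-hep1 and Huh-7, 8 of 15 members were higher in SK-hep1 and 2 in Huh-7, against 12.6% and 24.8% of 14002 genes. Between Mahlavu and Huh-7, 7 of 13 were higher in Mahlavu and 5 in Huh-7, against 15.3% and 17.8% of 14418 genes. These shares are descriptions, and their differences were not tested. The Huh-7 files hold FPKM only, unlike those of the other lines, so cell line and any difference in how the files were made cannot be told apart. In bulk RNA, fewer cells that express a gene and less RNA per cell cannot be told apart either.

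Apart from HOXB7, no HOXB gene reached 1 FPKM outside SK-hep1. HOXB7, which many carcinomas express, was the highest HOX gene of every SK-hep1 library, at 73.8 FPKM in mock, 52.2 with PSPC1, 70.1 with PSPC1/PTK6, 66.6 with PSPC1-Y523F and 57.6 with PSPC1-Y523F/PTK6. It was at 3.62, 2.68 and 1.46 FPKM in Mahlavu mock, PSPC1-CT131 and Mut-NLS-CT131, and at 0 and 0.0828 FPKM in untreated and HGF-treated Huh-7, the latter from 1 read. The lines did not overlap, and the SK-hep1 median was 24.9 times the Mahlavu median. HOXB13, a gene of the prostate and hindgut that lies apart from the rest of its cluster at the tail-end side, was at 9.18, 5.13, 9.34, 3.27 and 6.45 FPKM in SK-hep1, in the same order of constructs. It had no read in any Mahlavu or Huh-7 library, and the lowest SK-hep1 library was at least 72.1-fold above the level of 3 reads per library in Mahlavu and 57.6-fold above that in Huh-7. HOXB3, HOXB5 and HOXB6, which pattern the hindbrain and neck, ranged over 4.40 to 17.5, 3.05 to 6.41 and 6.72 to 18.2 FPKM in SK-hep1, against at most 4 reads each in any Mahlavu library and none in Huh-7. Relative to the level of 3 reads in Huh-7, the lowest SK-hep1 libraries were at least 34.1-fold, 31.6-fold and 38.1-fold higher for these genes. HOXB9 reached 1.26 to 5.26 FPKM in SK-hep1 against 0.171 to 0.345 FPKM in Mahlavu and no read in Huh-7.

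HOXC showed a different split, with HOXC4, HOXC6 and HOXC10 read in SK-hep1 and Huh-7 and under 1 FPKM in Mahlavu. HOXC10, a gene of the lumbar trunk and hindlimb, was at 38.97, 29.4, 26.6, 27.0 and 35.4 FPKM in SK-hep1 from mock to PSPC1-Y523F/PTK6, and at 54.6 and 59.2 FPKM in untreated and HGF-treated Huh-7. In Mahlavu it was at 0.938, 0.430 and 0.223 FPKM, so the SK-hep1 and Huh-7 medians were 68.3 and 132 times the Mahlavu median. HOXC6 went the same way, at 5.64 to 9.63 FPKM in SK-hep1, 6.69 and 7.54 in Huh-7 and 0.0752 to 0.411 in Mahlavu, and HOXC4 stood at 1.25 to 2.92, 7.20 and 7.32, and at most 0.0402 FPKM. HOXC4 and HOXC6 share 484 exon bases on the same strand, so they are not independent measurements. HOXC9 was less divided, at 2.44 to 3.19 FPKM in SK-hep1, 6.92 and 6.88 in Huh-7 and 0.262 to 1.14 in Mahlavu, and did not reach a 2-fold gap between SK-hep1 and Mahlavu. HOXC13, at the tail-end side, followed another order, with 34.4, 23.5, 24.2, 23.2 and 26.5 FPKM in SK-hep1, 12.6, 7.46 and 5.49 FPKM in Mahlavu, and 2.09 and 1.76 FPKM in Huh-7. Its 3 ranges did not overlap, although the gap between SK-hep1 and Mahlavu was 0.83 on the log2 scale and thus under 2-fold. HOXC11 lies between HOXC10 and HOXC13, and it had at most 2 reads in any SK-hep1 library against 15 to 50 in each Mahlavu and Huh-7 library. The low values of HOXC5 carry a limit, since 1081 of its 1805 exon bases also belong to a second gene record of that name that is listed at 0 in all 10 libraries, and reads there may have been given to neither. The second record also shares 305 exon bases with HOXC4 and 305 with HOXC6.

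HOXD8 to HOXD11 and HOXA10 were highest in Mahlavu by the line medians. HOXD8, which lies on the head side of HOXD9, had 203, 228 and 183 reads in the 3 Mahlavu libraries (5.94, 7.64 and 6.36 FPKM), no read in 4 SK-hep1 libraries, and 1 read each in the remaining SK-hep1 library and in untreated Huh-7. HOXD9 and HOXD10, which pattern the trunk and limb, were at 2.27 to 3.18 and 4.03 to 6.16 FPKM in Mahlavu and had no read in Huh-7. HOXD13, the gene of the digits and genital tubercle, was at 2.44 to 5.02 FPKM in Mahlavu and 1.67 to 4.10 FPKM in SK-hep1, ranges that overlapped, with no read in Huh-7. HOXD1, at the other end, was at 2.04 and 1.20 FPKM in untreated and HGF-treated Huh-7, at 0.0796 to 0.435 FPKM in Mahlavu and without a read in SK-hep1. It shares 158 exon bases with HAGLR, a noncoding RNA on the opposite strand with the same order of lines. The library kit does not mark strand, so reads of HOXD1 and HAGLR cannot be told apart in the shared bases. Among HOXA genes, HOXA10, known from the uterus and blood progenitors, was at 4.89 to 6.48 FPKM in Mahlavu, 1.53 to 2.94 in SK-hep1 and at most 0.0802 in Huh-7. HOXA3, a gene of the pharyngeal arches, was highest in Huh-7 at 4.30 and 3.63 FPKM, against at most 0.705 in SK-hep1 and 0.159 in Mahlavu. The same limit holds for HOXA3, which shares 374 exon bases with HOXA-AS2 on the opposite strand. HOXA-AS2 had 52 and 39 reads in Huh-7 and at most 3 in any library of the other lines. HOXA5 was at 0.812 to 1.63 FPKM in SK-hep1, 2.09 to 3.64 in Mahlavu and 1.72 and 1.39 in Huh-7, and it was the only one of the 13 members compared between Mahlavu and Huh-7 that did not stand apart. The other 8 HOXA genes reached at most 1.43 FPKM, in HOXA4 in SK-hep1 mock.

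Changes with the constructs were taken as log2 fold changes of quantile-normalized FPKM + 1 between 2 libraries, for genes whose level averaged 1 FPKM or more over the pair. A change of at least 2-fold was counted. Over the 9 contrasts, 26 members passed the level filter at least once and 7 of them changed, namely HOXB3, HOXB4, HOXB6, HOXB13, HOXC8, HOXD9 and HOXD10. All of these changes lay in SK-hep1 contrasts that involve PSPC1-Y523F. The 4 contrasts against mock in SK-hep1 share the mock library, and each contrast for PTK6 shares its libraries with 2 of them.

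With PSPC1, 0 of 17 members changed, while 3.38% of 12411 genes rose and 2.19% fell. With PSPC1/PTK6, 0 of 17 changed against 5.09% and 3.32% of 12436 genes. With PSPC1-Y523F, 3 of 19 members rose and 1 fell, where 2.83% of 12382 genes rose and 2.46% fell. With PSPC1-Y523F/PTK6, 3 of 20 rose and 0 fell, against 3.44% and 1.59% of 12412 genes. The members' median log2 fold change was -0.31, -0.23, -0.12 and -0.02 in these 4 contrasts, beside -0.03, -0.04, -0.01 and -0.04 over all genes tested. On FPKM as deposited the median of all genes moved up by 0.19 with PSPC1/PTK6 and by 0.21 with PTK6 added to PSPC1, and the members' medians were then 0.01 and 0.22, beside 0.15 and 0.19 over all genes. PTK6 added to PSPC1 changed 0 of 16 members (3.09% of 12391 genes rose and 1.87% fell), and PTK6 added to PSPC1-Y523F raised 2 and lowered 3 of 20 (3.78% of 12398 genes rose and 2.2% fell). The level filter averages the pair, so some changed members passed it only through the library where they were high. Against mock these were HOXB4 (0.56 normalized FPKM in mock), HOXC8 (0.751) and HOXD9 (0.94). With PTK6 added to PSPC1-Y523F they were HOXB4 (0.368 in PSPC1-Y523F/PTK6) and HOXD9 (0.954 in PSPC1-Y523F). The same filter was applied to all genes.

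**Figure D2:**
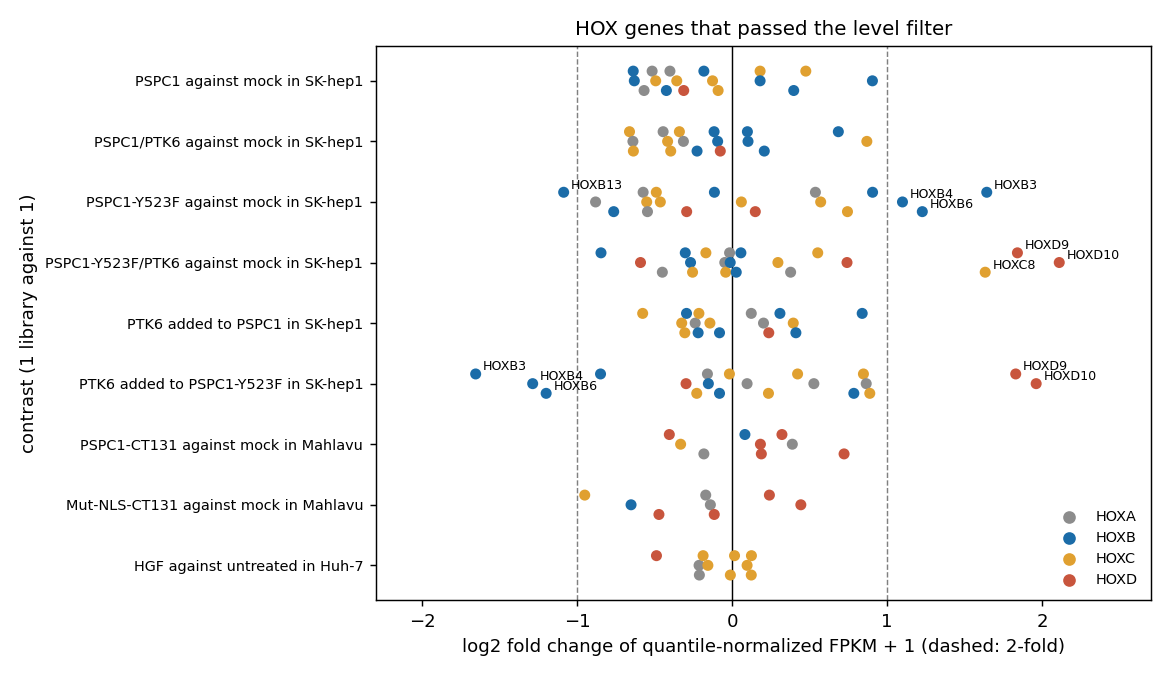
Log2 fold change of quantile-normalized FPKM + 1 (horizontal axis) of each HOX gene that passed the level filter, in the 9 contrasts of 1 library against 1 (vertical axis), coloured by cluster, with dashed lines at 2-fold and small vertical offsets for legibility. The 7 named genes cross the lines, all in contrasts with PSPC1-Y523F, and HOXB3, HOXB4 and HOXB6 change sides when PTK6 is added.

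The HOXB3 to HOXB6 stretch was highest in the PSPC1-Y523F library and close to the mock level or below it in the PSPC1-Y523F/PTK6 library. Between these libraries PSPC1 itself rose 19-fold on the normalized scale and PTK6 2.17-fold. The part of either in the HOXB values was not tested. HOXB3 was at 4.90 FPKM in mock (162 reads), 9.92 with PSPC1 (306 reads), 10.6 with PSPC1/PTK6 (385 reads), 17.5 with PSPC1-Y523F (562 reads) and 4.40 with PSPC1-Y523F/PTK6 (163 reads). It was thus lowest in mock and PSPC1-Y523F/PTK6, and its quantile-normalized level changed 3.12-fold with PSPC1-Y523F and 0.317-fold when PTK6 was added to it. The ratio of its reads, scaled to library size, was 3.57 (95% exact interval 2.99 to 4.27) and 0.252 (0.210 to 0.300), intervals that cover counting error only. HOXB6 followed with 7.24, 9.58, 9.69, 18.2 and 6.72 FPKM, or 2.34-fold and 0.435-fold. HOXB4, which is known for expanding blood stem cells, had 31, 48, 94, 137 and 20 reads, or 0.381, 0.632, 1.05, 1.73 and 0.219 FPKM, and changed 2.14-fold and 0.409-fold. On FPKM as deposited, before quantile normalization, the HOXB4 log2 difference was 0.98 with PSPC1-Y523F, just under 2-fold, and with PTK6 added it was -1.16 but the pair averaged under 1 FPKM, so neither HOXB4 change was counted on that scale. HOXB5 had the same order of libraries, at 3.16, 3.56, 4.56, 6.41 and 3.05 FPKM, and did not reach 2-fold, with log2 fold changes of 0.91 and -0.85.

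Markers of other cell types moved in the PSPC1-Y523F library too, with COL1A1 at 0.327-fold, COL1A2 at 2.48-fold and CD14 at 0.450-fold of mock. CD14 was also 0.405-fold with PSPC1 and 0.495-fold with PSPC1/PTK6, the latter 0.566-fold on FPKM as deposited. COL1A1 was 0.524-fold with PSPC1, or 0.486-fold on FPKM as deposited. The part of these markers in the HOXB values was not tested.

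The same stretch holds HOXB-AS3, a long noncoding RNA read from the opposite strand across HOXB5 and HOXB6. HOXB-AS3 was at 6.92, 11.2, 6.53, 23.9 and 5.94 FPKM in the 5 SK-hep1 libraries and had no read in Mahlavu or Huh-7. It changed 3.08-fold with PSPC1-Y523F and 0.314-fold with PTK6 added to it, and 0.495-fold with PTK6 added to PSPC1, the last being 0.618-fold on FPKM as deposited. Its exons share 425 bases with HOXB6, 77 with HOXB3 and 73 with HOXB5, and the library kit does not mark strand, so reads of these genes and of HOXB-AS3 cannot be told apart in the shared bases. HOXB3 and HOXB6 also share 433 exon bases on the same strand, and HOXB3 and HOXB4 share 159, so the 3 genes are not independent measurements.

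Genes on the other side of the cluster did not follow this order. HOXB13 was at 690 reads in mock, 360 with PSPC1, 773 with PSPC1/PTK6, 239 with PSPC1-Y523F and 543 with PSPC1-Y523F/PTK6. Its level was thus lower in both libraries without added PTK6 than in mock and in the PTK6 libraries, and it was 0.470-fold with PSPC1-Y523F (read ratio 0.356, interval 0.306 to 0.413). With PSPC1 alone the log2 difference of HOXB13 was -0.64, short of 2-fold. HOXB9 was at 3.34, 1.78, 5.26, 1.45 and 1.26 FPKM and passed 2-fold in no contrast on the normalized scale, with log2 fold changes between -0.85 and 0.84. Its read ratio was 0.434 (interval 0.330 to 0.568) with PSPC1-Y523F, 0.377 (0.286 to 0.493) with PSPC1-Y523F/PTK6 and 2.95 (2.34 to 3.76) with PTK6 added to PSPC1, and in these 3 contrasts it did pass 2-fold on counts scaled by TMM or with a pseudocount of 0.1. HOXB7, between both groups of genes, kept within -0.43 to 0.31 on the log2 scale in all 6 contrasts. HOXB9 and HOXB13 have no exon base in common with another gene.

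**Figure D3:**
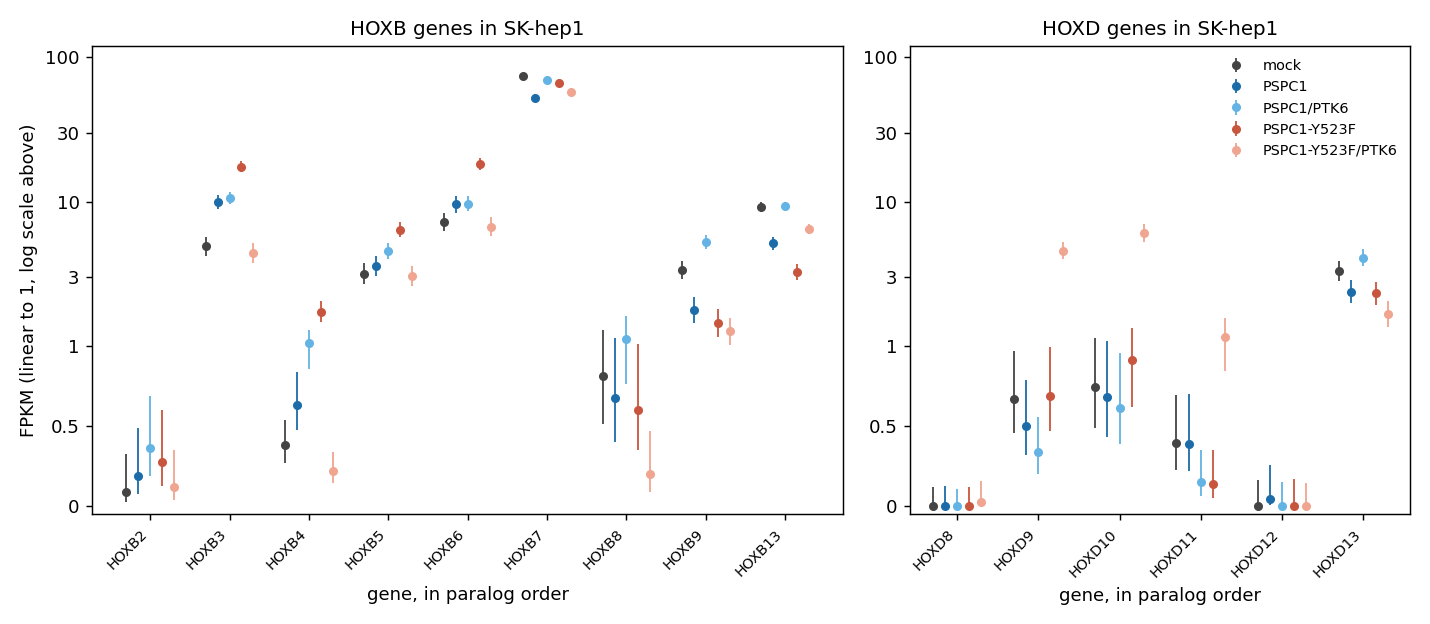
FPKM (vertical axis, linear to 1 and logarithmic above) of the HOXB genes (left) and the HOXD genes from HOXD8 (right) in the 5 SK-hep1 libraries, 1 library per construct, with 95% Wilson intervals for counting error as bars. PSPC1-Y523F is the highest point for HOXB3 to HOXB6 and the lowest for HOXB13, and PSPC1-Y523F/PTK6 is the highest point for HOXD9, HOXD10 and HOXD11 with HOXD8 and HOXD12 near 0.

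HOXD9 and HOXD10 rose in a single library. HOXD10 had 21 reads in SK-hep1 mock, 18 with PSPC1, 19 with PSPC1/PTK6, 25 with PSPC1-Y523F and 191 with PSPC1-Y523F/PTK6, which are 0.744, 0.684, 0.611, 0.911 and 6.04 FPKM. HOXD9 had 27, 19, 15, 27 and 208 reads, or 0.666, 0.502, 0.336, 0.685 and 4.58 FPKM. The first 4 libraries lay close together for both genes and the fifth stood above them. There HOXD10 lay within its Mahlavu range of 4.03 to 6.16 FPKM, and HOXD9 lay above its Mahlavu range of 2.27 to 3.18 FPKM. Against mock, the quantile-normalized level was 4.32-fold for HOXD10 (read ratio 8.12, interval 5.16 to 13.4) and 3.58-fold for HOXD9 (6.88, 4.59 to 10.7). Against PSPC1-Y523F without PTK6, it was 3.90-fold and 3.56-fold. HOXD11, the next gene, had 12, 11, 5, 4 and 39 reads and did not reach 2-fold against mock, at 1.67-fold (read ratio 2.90, interval 1.49 to 6.09). Among the HOX genes the block ended there, since HOXD12 had at most 1 read in any SK-hep1 library and HOXD8 had 1 read in the PSPC1-Y523F/PTK6 library. HOXD13 was lower in that library than in mock, at 91 against 160 reads (log2 fold change -0.59). HOXD-AS2, a noncoding RNA that shares 379 exon bases with HOXD3 on the head side of HOXD8, had 35 reads in that library against 2 in mock. HOXD9 has no exon base in common with another gene, while HOXD10 and HOXD11 share 452. The PSPC1-Y523F/PTK6 library is also the one with the most PSPC1 reads, at 70.9 FPKM against 2.28 in PSPC1-Y523F, and the part of that level in the HOXD values was not tested. Of 6 mesenchymal markers 2 were highest in that library, THY1 at 35.5 FPKM against 11.9 to 21.0 in the other 4 and PDGFRB at 43.0 against 17.5 to 42.6. The sum of the 6 was 579 FPKM, within 497 to 775 FPKM over the SK-hep1 libraries, but VIM made up 490.5 FPKM of it. The leukocyte marker CD14 was at 16.6 FPKM there, 6.69 in PSPC1-Y523F and 18.3 in mock. Their part in the HOX values was not tested.

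The promoters of HOXD10 and HOXD11, with HOXD8 as a neighbour that stayed silent in SK-hep1, show what the starts of this block look like. They are the 250 bases before the start site on the plus strand in RefSeq (GRCh38.p14), at chr2:176116528-176116777 for HOXD10, chr2:176107030-176107279 for HOXD11 and chr2:176129455-176129704 for HOXD8, and HOXD9 had no entry. Capitals mark matches, on either strand, to the 4 motifs searched, the TATA box TATAAA, the CCAAT box CCAAT, the homeodomain core TAATTA and the joint PBX-HOX site TGATNNAT.
HOXD11: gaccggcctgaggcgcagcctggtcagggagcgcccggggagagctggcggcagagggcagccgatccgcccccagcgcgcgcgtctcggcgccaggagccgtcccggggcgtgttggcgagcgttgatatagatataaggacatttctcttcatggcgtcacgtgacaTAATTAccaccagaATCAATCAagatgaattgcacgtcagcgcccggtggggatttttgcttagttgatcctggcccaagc
HOXD10: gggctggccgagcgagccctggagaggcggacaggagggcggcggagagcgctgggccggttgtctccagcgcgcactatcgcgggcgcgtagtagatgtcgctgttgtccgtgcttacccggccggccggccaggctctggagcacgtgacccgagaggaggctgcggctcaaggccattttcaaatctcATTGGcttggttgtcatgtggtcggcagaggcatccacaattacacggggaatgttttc
HOXD8: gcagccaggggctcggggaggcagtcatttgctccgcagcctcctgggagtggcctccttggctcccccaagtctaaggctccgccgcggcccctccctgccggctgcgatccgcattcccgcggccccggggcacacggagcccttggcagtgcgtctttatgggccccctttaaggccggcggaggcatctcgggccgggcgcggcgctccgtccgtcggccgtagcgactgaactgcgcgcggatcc
HOXD11 held 1 TAATTA and 1 TGATNNAT, HOXD10 held 1 CCAAT, and HOXD8 held none of the 4. Among all 35116 promoter entries of the same length, 4.35% held TAATTA, 6.47% TGATNNAT, 32% CCAAT and 10.7% TATAAA, and such matches are letters in this window and not evidence of binding. All 3 windows were rich in G and C, at 61.6%, 64% and 72.4%, with a ratio of observed to expected CpG of 0.976, 0.923 and 0.857. Over the 20 members with an entry (27 windows), the median GC content was 58.8% beside 58% in all entries, and the median CpG ratio was 0.888 beside 0.558. TAATTA lay in 2 of the 27 windows (HOXD3 and HOXD11), TGATNNAT in 3, TATAAA in 5 and CCAAT in 18.

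HOXC8, a thoracic gene, was the remaining member that changed. It had 21 reads in SK-hep1 mock, 43 with PSPC1, 110 with PSPC1/PTK6, 57 with PSPC1-Y523F and 155 with PSPC1-Y523F/PTK6, or 0.513, 1.13, 2.44, 1.43 and 3.38 FPKM. Mock was the lowest and both libraries with PTK6 were the highest. The change was 3.10-fold with PSPC1-Y523F/PTK6 (read ratio 6.59, interval 4.16 to 10.9) and 1.83-fold with PSPC1/PTK6, the latter past 2-fold on FPKM as deposited and on read counts scaled by TMM. Both highly read HOXC genes stayed within 2-fold in all 6 contrasts, HOXC10 between -0.66 and 0.42 and HOXC13 between -0.64 and 0.23 on the log2 scale. HOXA10 lay between -0.58 and 0.53.

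In Mahlavu, 0 of 9 members changed in the library labelled PSPC1-CT131, where 3.17% of 12415 genes rose and 3.16% fell, and 0 of 8 in the library labelled Mut-NLS-CT131, where 3.16% of 12425 genes rose and 3.26% fell. HOXC13 had 691 reads in mock, 358 in PSPC1-CT131 and 254 in Mut-NLS-CT131, with log2 fold changes of -0.33 and -0.95. On FPKM as deposited it was lower by a log2 difference of -1.06 in Mut-NLS-CT131, which is past 2-fold. The log2 difference of HOXB7 was -0.65 in Mut-NLS-CT131. HOXD8 was the gene furthest above 0 with PSPC1-CT131, at 0.72, and stood at 0.24 with Mut-NLS-CT131, where HOXD10 was furthest above, at 0.44. Of the 6 mesenchymal markers, THY1 was 0.300-fold and 0.268-fold in the construct libraries, ACTA2 was 0.326-fold in PSPC1-CT131 and PDGFRB was 0.469-fold in Mut-NLS-CT131. VIM went the other way, at 278.8 FPKM in mock, 532.4 in PSPC1-CT131 and 418.3 in Mut-NLS-CT131. COL1A2 was at 26.69, 26.82 and 44.49 FPKM in the same order. The sum of the 6 markers, most of it VIM, was 335, 573 and 475 FPKM. The part of these markers in the HOX values was not tested. Signs in the PSPC1-CT131 contrast depend on the scaling, since the median of all genes lay at 0.01 after quantile normalization and at -0.23 on FPKM as deposited, and HOXA10, HOXB7, HOXD9, HOXD10 and HOXD11 were above 0 on the first scale and below it on the second. Log2 fold changes of that library also rose with the GC content of the transcript (Spearman's rho 0.57 across 12402 genes, which are not independent), and HOX transcripts had a median GC of 55.3% beside 48.6% over the genes tested. With GC and length taken out, the members' median went from 0.18 to -0.01. The corresponding rho was -0.31 to 0.25 in the SK-hep1 contrasts, -0.11 for Mut-NLS-CT131 and -0.001 for HGF.

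HGF moved no HOX gene of Huh-7 past 2-fold. 0 of the 10 members tested changed at least 2-fold, against 0.428% of 14262 genes that rose and 0.393% that fell, and their log2 fold changes lay between -0.49 and 0.12. HOXC10 had 841 and 848 reads, and its reads scaled to library size stood at a ratio of 1.08 (interval 0.983 to 1.19). HOXD1, at the head-side end of HOXD, was furthest from 0, with 66 reads untreated and 36 with HGF (ratio 0.586, interval 0.379 to 0.892). For HOXC4, HOXC6 and HOXC9 the ratios were 1.02, 0.887 and 0.995, and each interval held 1.

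Of 19 listed noncoding RNAs of the clusters, 3 reached 5 FPKM in at least 1 library (HOXB-AS3, HAGLR and HOXC-AS1). HAGLR, which lies on the opposite strand beside HOXD1, was at 47.1 and 35.5 FPKM in Huh-7, 9.07, 10.6 and 6.97 FPKM in Mahlavu and without a read in SK-hep1, so it was higher in Huh-7 while HOXD8 to HOXD13 were at 0 or 1 read there. It shares 158 exon bases with HOXD1. HOXC-AS1 was at 7.29 and 8.77 FPKM in Huh-7 and at most 1.499 FPKM elsewhere, and HOXB-AS3 is given above. Other listed RNAs that changed were chosen for naming after their values were seen. HOTAIR, which lies opposite HOXC11 and HOXC12 and is known to bind Polycomb proteins, had 74 reads in Mahlavu mock, 4 in PSPC1-CT131 and 8 in Mut-NLS-CT131 (0.385-fold and 0.425-fold on the normalized scale), and no read in SK-hep1. HOXC13-AS had 106, 42 and 6 reads in the same libraries, the last 0.370-fold. HOXD-AS2 had 2, 1, 4, 7 and 35 reads in SK-hep1, the last 2.66 times mock on the normalized scale and under the level filter on FPKM as deposited, in the library where HOXD9 and HOXD10 were high. Of 6 listed cluster miRNAs only MIR196A1, with 0 to 5 reads in SK-hep1, passed the filter in a SK-hep1 contrast, too few for a fold.

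HOX proteins bind DNA with PBX, MEIS and PKNOX proteins, and 7 of 9 such cofactors reached 1 FPKM in every SK-hep1 library, 6 in Mahlavu and 6 in Huh-7. MEIS3 was at 24.5, 50.5, 61.5, 22.9 and 55.2 FPKM in SK-hep1, so it was lowest in mock and PSPC1-Y523F, and it changed at least 2-fold in 4 of the 6 contrasts (2.01-fold with PSPC1, 2.27-fold with PSPC1/PTK6, 2.24-fold with PSPC1-Y523F/PTK6 and 2.31-fold with PTK6 added to PSPC1-Y523F). In Mahlavu MEIS3 was at 0.975, 2.99 and 2.02 FPKM, 2.44-fold with PSPC1-CT131. PBX4 was at 1.71, 3.71, 10.3, 3.81 and 5.23 FPKM in SK-hep1 and changed 3.32-fold with PSPC1/PTK6 and 2.41-fold with PSPC1-Y523F/PTK6.

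Chromatin regulators of the clusters were read in all lines. All 23 Polycomb genes and all 16 genes of the Trithorax and boundary list were at 1 FPKM or more in every library, including the lines in which whole stretches of HOXB or HOXD had no read. With PSPC1/PTK6, 2 of 23 Polycomb genes and 2 of 16 of the Trithorax list fell at least 2-fold, beside 3.32% of 12436 genes. In every other contrast at most 1 gene of each list changed, beside the shares of all genes given above. CBX2, a Polycomb reader of methylated histone H3, was 0.377-fold with PSPC1 and 0.369-fold with PSPC1/PTK6, EZH2, the Polycomb methyltransferase, was 0.411-fold with PSPC1/PTK6, and BMI1 was 0.463-fold in PSPC1-CT131. Of the Trithorax list, KMT2D and DOT1L were 0.468-fold and 0.483-fold with PSPC1/PTK6, DOT1L was 0.477-fold with PTK6 added to PSPC1-Y523F, and KDM6B, which removes the Polycomb mark, was 2.38-fold in Mut-NLS-CT131. On FPKM as deposited, CBX2 was also past 2-fold with PSPC1-Y523F/PTK6 (0.488-fold), and DOT1L was short of it with PSPC1/PTK6 (0.514-fold). Of 14 listed retinoid and upstream genes, at most 2 changed in a contrast, and CYP26B1, GBX2 and RARA were the 3 that did, named after their values were seen. The 2 were of 9 tested with PSPC1/PTK6, where 5.09% of all genes rose and 3.32% fell. Of 18 genes flanking the clusters, 12 were tested in each of the 9 contrasts and 0 changed on the normalized scale, beside the shares of all genes given above. Their median log2 fold change was -0.61 with PSPC1-Y523F, where that of all genes was -0.01. In the other contrasts the median of the flanking genes lay between -0.22 and 0.30. On FPKM as deposited, 2 of them passed 2-fold and are named after their values were seen. CALCOCO2, the only HOXB neighbour listed that passed the level filter, was at 124.7, 61.5, 113, 61.9 and 60.8 FPKM in SK-hep1, or 0.497-fold with PSPC1 and 0.491-fold with PSPC1-Y523F/PTK6. TAX1BP1, beside HOXA, was 0.458-fold with PSPC1-Y523F.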

How the data were processed

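RNA-Seq of 10 libraries, 1 per condition, was analysed. Conditions came from the labels. Files of SK-hep1 and Mahlavu hold, as deposited, unnormalized counts of reads on each gene beside FPKM that the authors derived with 1 length per gene. For Huh-7 the authors deposited FPKM only, whose values were whole multiples of 1 read (within 0.01 read for 100% of genes with a known length), which gave their reads and totals. The submitters' processing notes name TopHat2 2.0, HTSeq 0.6.1, edgeR and GRCh38.p12, while the methods name another build and quantile normalization; the deposited FPKM are not quantile normalized. The labels describe poly-A selection with a kit that does not mark strand, and the methods rRNA depletion. How reads shared by overlapping genes were assigned is not given in the sources used here.

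The 39 members were matched by symbol. The members and gene lists were chosen with earlier results of these data known. FPKM were quantile normalized over the 8 SK-hep1 and Mahlavu libraries and over both Huh-7 libraries. Log2 fold changes used a pseudocount of 1 on genes averaging 1 FPKM or more, and a change was at least 2-fold. Cell lines were compared on deposited FPKM. Intervals are 95% Wilson (levels) or exact binomial (read ratios), and floors are 3 reads per library. Reads carry no molecular identifiers, so both cover counting error only. A length behind the FPKM was known for 37 members, all but HOXB1 and HOXD4. Members at 10 FPKM in a library or changed in a contrast were described in full and the others by range; other genes named were PSPC1, PTK6, cluster RNAs at 5 FPKM, and listed cofactor, chromatin or flanking genes that changed. Lists covered cluster RNAs and miRNAs, cofactors, Polycomb, Trithorax, retinoid and flanking genes, and hepatocyte, endothelial, mesenchymal and leukocyte markers. Alternatives were other pseudocounts, filters and scalings (edgeR 4.0.16 TMM on the counts) and leaving out each library; taking out GC content and length (GENCODE 29) was added after seeing the data. Python 3.11.15, scipy 1.17.1 and R 4.3.3 were used, and the calculations were tested on simulated data. Protein sequences were not used here. Values of some single genes are not reported here.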

Additional observations from a re-analysis of the deposited data

Results flagged for a closer look

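The log2 fold change with PTK6 added had opposite signs on PSPC1 and on PSPC1-Y523F for 3 HOX genes that passed 2-fold on PSPC1-Y523F. On PSPC1 all 3 were under the level filter. The log2 fold change of HOXD9 was -0.343 with PTK6 added to PSPC1 and 1.83 with PTK6 added to PSPC1-Y523F. HOXD10 was at -0.288 and 1.962. HOXB4 was at 0.086 and -1.288. On PSPC1 the read ratio was 0.669 (95% exact interval 0.316 to 1.39) for HOXD9 and 0.894 (0.444 to 1.81) for HOXD10, both of which hold 1, and 1.66 (1.16 to 2.40) for HOXB4. Each value compares 1 library with 1 other, so the difference between the contrasts was not tested. PSPC1 itself rose 2.81-fold with PTK6 added to PSPC1 and 19-fold with PTK6 added to PSPC1-Y523F. Its part in these values was not tested.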

How the results depend on the processing

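Of 119 recomputed counts, 94 stayed within 1.5 times the reported count. No change of a member reversed in 84 recomputations, 67 stayed past 2-fold with the filter passed and 17 did not, and HOXB3 was past 2-fold under every alternative in both of its contrasts. Other pseudocounts and filters cannot change the sign of a difference. Only the other scalings and taking out GC content and length could have reversed one. A pseudocount of 0.1 gave 1 changed member for PSPC1 (HOXB3), 2 for PSPC1/PTK6, 8 for PSPC1-Y523F, 5 for PSPC1-Y523F/PTK6, 1 for PTK6 added to PSPC1, 8 for PTK6 added to PSPC1-Y523F and 1 for Mut-NLS-CT131. A pseudocount of 5 gave 1, 1 and 2 for PSPC1-Y523F, PSPC1-Y523F/PTK6 and PTK6 added to PSPC1-Y523F, and 4, 3 and 4 members apart for SK-hep1 against Mahlavu, SK-hep1 against Huh-7 and Mahlavu against Huh-7. FPKM as deposited gave 1 for PSPC1/PTK6 (HOXC8), 1 for PTK6 added to PSPC1 (HOXB9) and 1 for Mut-NLS-CT131 (HOXC13), and TMM-scaled counts gave 1 and 1 for the first pair of contrasts. HOXB9 was also lower past 2-fold with PSPC1-Y523F and PSPC1-Y523F/PTK6 on TMM-scaled counts and with a pseudocount of 0.1. A mean of at least 5 FPKM left 0 for PSPC1-Y523F/PTK6 and 2 for PTK6 added to PSPC1-Y523F, since HOXD9 and HOXD10 average less. Any gap in place of 2-fold gave 14 members apart between SK-hep1 and Mahlavu. At 5 FPKM, 5, 2 and 4 members were read in every library of SK-hep1, Mahlavu and Huh-7, and at 10 reads 22 in SK-hep1. Leaving out 1 library gave 9 to 10, 10 to 11 and 12 to 13 members apart for the 3 pairs, with none lost. HOXD10 joined the first pair without PSPC1-Y523F/PTK6 and HOXC13 without Mahlavu mock, HOXB9 joined SK-hep1 against Huh-7 without PSPC1, PSPC1-Y523F or PSPC1-Y523F/PTK6, and HOXD1 joined both pairs with Huh-7 without HGF. Taking out GC content and length, chosen after seeing the data, changed no count by over 1.5 times. No paired analysis was possible because the labels carry no replicate numbers and no condition has more than 1 library. Depth limits the genes with few reads, HOXB4, HOXC8 and HOXD11 among those described.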
